A study of Sus scrofa with 8 samples.

Results

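The nuclear genes of oxidative phosphorylation were followed through embryonic cells of the pig (Sus scrofa). All gene symbols that begin with NDUFA, NDUFB, NDUFC, NDUFS or NDUFV, that are SDHA to SDHD, or that begin with UQCR, COX4 to COX8 or ATP5 were taken, which gave 73 of the 21301 genes in the count tables. They comprised 30 subunits and 8 assembly factors of complex I, 3 subunits of complex II, 5 of complex III, 13 of complex IV, NDUFA4L2 of the NDUFA4 family, 12 subunits of complex V and the complex V inhibitor ATP5IF1. The cells came from dissociated somites at embryonic day (E) 16, E18 and E21 and from the myotome at E28, of Tibetan pigs (ZZ) and of Duroc × Tibetan pigs (DZ). These 8 groups, E16-ZZ to E28-DZ, had 1 droplet library each, made from 5 embryos of 1 sow that were mixed before sequencing, so that no group had a replicate of its own. E16 and E18 are called early below and E21 and E28 late, with 4 libraries a period, and a test between periods measures the spread between those libraries. Stage and tissue cannot be told apart at E28, which was the only stage taken from the myotome.

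Oxidative phosphorylation passes electrons from NADH and succinate through complexes I to IV of the inner mitochondrial membrane to oxygen, and complex V uses the proton gradient they build to make ATP. Most of the subunits are encoded in the nucleus and are joined in the membrane by 13 that mitochondrial DNA encodes. Several subunits of complex IV, cytochrome c oxidase, exist as a ubiquitous form and a tissue form: COX6A2 and COX7A1 are known as the heart and skeletal muscle forms of COX6A1 and COX7A2, COX4I2 is a form of COX4I1 known from lung and from cells in low oxygen, and COX6B2 is known from testis. NDUFA4, SDHA and COX6B1 are not analysed here. Nor are other subunits without a matching symbol in the count tables, such as ATP5F1B of complex V and UQCRB of complex III. Counts per complex below are therefore counts of members, not of whole complexes.

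The nuclear regulators best known for these genes, NRF1 and the ETS family factor GABP, bind short motifs near gene starts, so the promoters of 5 members called in the comparisons below are shown first. RefSeq on the build Sscrofa11.1 gave a gene start for 48 of the 73 members, matched by symbol. Below are the 250 bases before that start, 5′ to 3′ on the gene's own strand, for COX7A1 (minus strand, chr6:45520722-45520971) and NDUFA8 (minus strand, chr1:262258187-262258436), which had the largest difference in cardiac cells and the largest rise of a complex I subunit in myocytes, in that order, for SDHD (plus strand, chr9:39790404-39790653), which was lower in the late libraries, and for NDUFS6 (minus strand, chr16:79000002-79000251) and NDUFA10 (minus strand, chr15:139031893-139032142), which were higher in myocytes under TMM and hold the letters searched for. Capitals mark the letters GCATGCGC, the core of the NRF1 motif, or CCGGAAG, an ETS motif, on either strand, where overlapping matches count once. The reverse complements are GCGCATGC and CTTCCGG.
COX7A1: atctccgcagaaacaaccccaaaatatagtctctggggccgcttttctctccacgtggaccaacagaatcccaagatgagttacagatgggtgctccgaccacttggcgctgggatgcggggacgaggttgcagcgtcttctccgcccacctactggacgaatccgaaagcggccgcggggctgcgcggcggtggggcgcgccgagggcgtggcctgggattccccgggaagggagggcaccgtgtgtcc
NDUFA8: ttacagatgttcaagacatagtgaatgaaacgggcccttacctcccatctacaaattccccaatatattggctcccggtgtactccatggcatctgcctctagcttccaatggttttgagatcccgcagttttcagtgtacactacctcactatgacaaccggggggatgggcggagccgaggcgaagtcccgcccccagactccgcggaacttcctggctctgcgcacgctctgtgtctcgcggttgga
NDUFS6: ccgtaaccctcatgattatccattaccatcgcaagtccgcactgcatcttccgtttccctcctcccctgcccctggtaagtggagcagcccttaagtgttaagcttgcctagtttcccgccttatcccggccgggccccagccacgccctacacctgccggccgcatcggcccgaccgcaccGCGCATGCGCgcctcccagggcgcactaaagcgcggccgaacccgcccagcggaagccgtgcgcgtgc
NDUFA10: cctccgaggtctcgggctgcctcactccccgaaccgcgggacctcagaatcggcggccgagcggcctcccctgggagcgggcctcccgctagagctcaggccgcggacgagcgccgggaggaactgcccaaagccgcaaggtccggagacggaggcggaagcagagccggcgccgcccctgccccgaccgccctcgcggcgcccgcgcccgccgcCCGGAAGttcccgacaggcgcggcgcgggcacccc
SDHD: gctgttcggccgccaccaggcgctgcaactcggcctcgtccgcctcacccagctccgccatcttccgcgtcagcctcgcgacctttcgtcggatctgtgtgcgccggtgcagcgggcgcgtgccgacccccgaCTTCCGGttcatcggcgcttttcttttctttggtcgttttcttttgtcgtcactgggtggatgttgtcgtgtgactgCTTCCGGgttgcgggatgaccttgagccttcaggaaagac
The NRF1 letters stood in 5 of the 48 windows (10.4%), those of NDUFA5, NDUFA6, NDUFB4, NDUFB11 and NDUFS6, against 2.3% of the windows of 19556 protein-coding genes. The ETS letters stood in 10 of 48 (20.8%), against 7.8% of all. All 5 NRF1 matches lay before complex I subunits, which made up 30 of the 48 windows, while complex III had 1 window, complex IV 5 and complex V none, so nothing about the complexes can be read from this. COX7A1 and NDUFA8 held neither set of letters within these windows.

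Of 90688 barcodes in the 8 libraries, 74147 cells were kept, 5436 to 10956 a library, with 382691197 unique molecular identifiers (UMIs, each standing for a captured mRNA molecule) and medians of 3399.5 to 6168 UMIs a cell. E16-ZZ stood apart, since 39.2% of its barcodes had over 10% of their UMIs on mitochondrial genes, against 1.046% to 9.147% in the other libraries. The E16 libraries were counted with Cell Ranger 3.1.0 and the others with 3.0.2. Pairs of libraries shared 23 to 49 barcodes. Cells were assigned to a type where at least 3 of its marker genes had a UMI and no other type had as many, which placed 40024 cells (54.0%), and the UMIs of each gated type were added up within each library. No member is a marker. Among genes with a name, the cardiac gate was led by MYH7, MYL4 and NPPB and the myocyte gate by MYH3, MYLPF and TNNC2. The neuron gate was led by INA, SNCG and STMN3 and the fibroblast gate by LUM, DCN and OGN. The chondrogenic gate was led by ACAN and MATN4, and the erythroid gate by HBZ, HBE1 and AHSP. Of these, MYH3, TNNC2, INA, LUM, DCN, OGN, ACAN, MATN4 and AHSP are markers of their own gates, so their lead follows from the gating. The epithelial gate was led by FETUB and by its own marker CLDN7, with AHSG and AFP among its 10 leading genes. Of these, FETUB, AHSG and AFP are known from liver. Free RNA in the droplets was not removed, and its part in low values was not tested.

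The members together took between 1.53% and 1.99% of the UMIs of a whole library. Their share was 1.84% ± 0.145 (SD, n = 4) in the early libraries and 1.65% ± 0.0933 (n = 4) in the late libraries, with the lowest early library (1.67%, E18-DZ) below the highest late library (1.75%, E21-DZ). Cardiac cells stood highest, with 2.99% ± 0.0934 over 3 libraries and a range of 2.90% to 3.08%, which overlapped no other type. In 11 of the other 12 types the means lay between 1.60% in neural progenitors and 1.82% in epithelial cells, and neighbours in that order overlapped. Erythroid cells stood lowest at 1.03% ± 0.257 (n = 8).

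**Figure D1:**
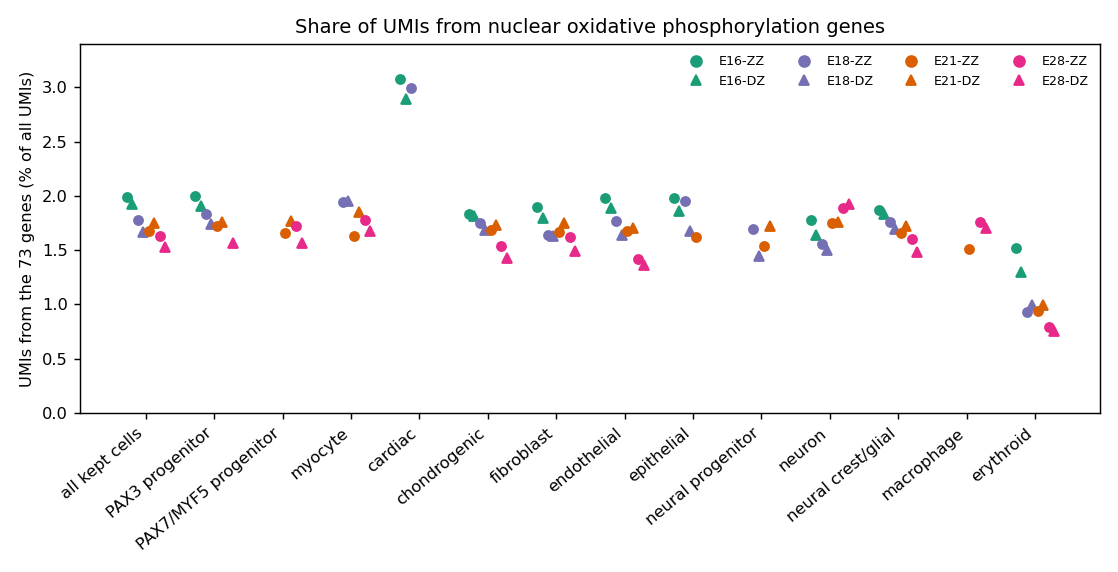
Share of all UMIs that came from the 73 members, in percent, for whole libraries and for each gated cell type; each point is a library, coloured by stage, with circles for ZZ and triangles for DZ. Cardiac cells lie between 2.90% and 3.08%, above every other type, and erythroid cells between 0.756% and 1.52%.

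Cardiac cells, found in E16-ZZ, E16-DZ and E18-ZZ (267 cells in all, 35 to 177 a library), had higher levels of most members than the mean of the other types. Against the mean of the other gated types with library as a blocking term, 58 of the 72 members tested were higher and none was lower (edgeR, adjusted p at or below 0.05 over all genes), where 18.5% of all 11977 genes tested were called. The median log2 difference was 0.69 over the members and −0.08 over all genes. These p-values measure the spread left among the sums of all 13 types after the library block, and only 3 sums were cardiac. In each of the 3 libraries the cardiac sum was the highest of the types in the fit, those with sums in at least 3 libraries (9, 9 and 11 types present, without 20 sclerotome cells of E18-ZZ), for 31 of 72 members (43.1%), and for 4.46% of all genes.

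The muscle forms of complex IV led this list. COX7A1 was at 145.9, 141.2 and 132.3 CPM (the UMI count over the sum's total, in the usual CPM unit, with totals scaled by edgeR's TMM factors) in the 3 cardiac sums, and its means in the other types lay between 6.11 and 22.5 CPM. The highest sum of another type was 35.2 CPM, in myocytes, and the log2 difference was 3.62 (SE 0.23, adjusted p = 1.23e-21). COX6A2 was at 346, 240 and 236 CPM in the cardiac sums, with a log2 difference of 2.79 (SE 0.20, adjusted p = 3.66e-19). COX6B2 (2.40, SE 0.46, adjusted p = 4.56e-05) and COX4I2 (1.93, SE 0.59, adjusted p = 0.0134) were also higher, at low levels of 32.1 ± 7.05 and 21.3 ± 9.61 CPM (SD, n = 3). These rest on 6 to 34 UMIs of COX6B2 and 5 to 12 of COX4I2 a sum, and neither gene was highest in cardiac cells in all 3 libraries: COX4I2 was at 56.7 to 77.4 CPM in early fibroblasts. The call of COX4I2 was lost without E16-ZZ.

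Subunits common to all cells were higher in cardiac cells as well. Called members were 27 of 29 subunits of complex I, 2 of 3 of complex II, 4 of 5 of complex III, 12 of 13 of complex IV and 11 of 12 of complex V. The count of complex IV includes the tissue forms COX7A1, COX6A2, COX6B2 and COX4I2. NDUFB9, a subunit of the membrane arm of complex I, was at 408, 461 and 589 CPM in the cardiac sums and up to 464 CPM in an erythroid sum and 331 CPM in a myocyte sum, with a log2 difference of 1.35 (SE 0.12, adjusted p = 5.44e-15). NDUFA8, a complex I subunit that is imported into the intermembrane space, had a log2 difference of 1.22 (SE 0.15, adjusted p = 8.08e-10). ATP5IF1, which inhibits complex V when it runs in reverse, was higher by 1.08. The complex I assembly factors, which act during building and are no part of the finished complex, did not share this: 1 of 8 (NDUFAF3) was called, and NDUFAF6 was at −0.40 (SE 0.27, adjusted p = 0.408). NDUFA4L2, at 2.59 (SE 1.00, adjusted p = 0.0613), was not called.

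Other genes of the pathway were counted from lists. The list of electron carriers and supports includes CYC1, a subunit of complex III whose symbol is outside the rule for the members. In cardiac cells 10 of 17 citric acid cycle genes and 8 of 11 electron carriers and supports were higher, among them CHCHD10 (2.98, SE 0.27) and CYCS, which is cytochrome c (1.08, SE 0.20), and none of either list was lower. Of 12 regulators of mitochondrial biogenesis, 2 were called higher, PPARGC1A and ESRRG, and 4 lower. PPARGC1A had 7 to 32 UMIs and ESRRG 1 to 7 UMIs in a cardiac sum, and 28 and 30 of 77 sums of the other types held none, so no fold is given for them. In the same cells 2 of 12 mitochondrially encoded genes were called higher, with a median of 0.21, and none with plain totals. Of 52 cytosolic ribosomal protein genes, 27 were lower and none higher. Mitochondrial UMIs took 6.07% ± 1.38 (SD, n = 3) of the cardiac sums. Cells with over 10% mitochondrial UMIs had been removed, which bounds these levels, and 39.2% of the barcodes of E16-ZZ lay over that limit. The effect of the limit on this comparison was not tested.

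**Figure D2:**
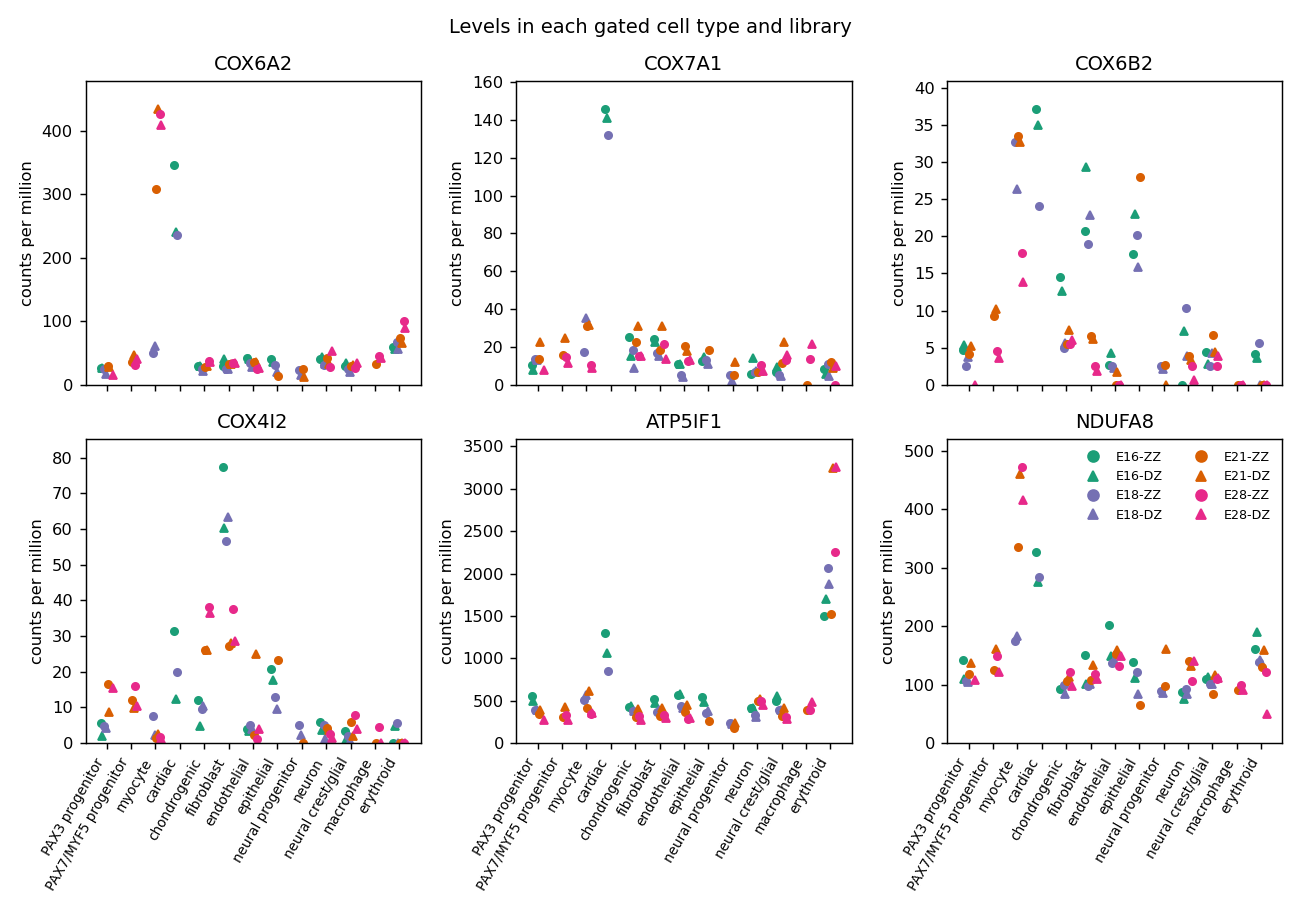
Levels of COX6A2, COX7A1, COX6B2, COX4I2, ATP5IF1 and NDUFA8 in every gated type, in CPM on linear axes from 0; each point is the sum of a type in a library, coloured by stage, with circles for ZZ and triangles for DZ. The 3 cardiac points of COX7A1 lie at 132.3 to 145.9, apart from all others.

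In skeletal muscle the comparison ran between PAX7/MYF5 progenitors and myocytes, cells that have begun to make sarcomere proteins, in the 4 libraries that held both (E21 and E28). Of 72 members, 24 were higher and 2 lower in myocytes, where 35.5% of all 10788 genes were called. The share of members called was near that of all genes, with almost all of their calls on the higher side. DESeq2 called 38 higher and 2 lower, and its share over all genes is not given here. The median log2 difference was 0.24 over the members and −0.05 over all genes. On the TMM scale, myocytes lay above the progenitors of the same library in all 4 libraries for 46 of 72 members (63.9%), against 24.7% of all genes. They lay below them in all 4 for 4 members (5.56%), against 27.9%. These 2 counts were not made with plain totals.

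COX6A2 led again. It was at 38.4, 49.9, 32.3 and 42.7 CPM in the progenitors of E21 (ZZ, then DZ) and E28 (ZZ, then DZ) and at 324, 458, 448 and 427 CPM in their myocytes, so every myocyte sum was above every progenitor sum (log2 3.19, SE 0.28, adjusted p = 1.71e-08). In the myocytes of E18 (42 cells in E18-ZZ and 77 in E18-DZ), which had no PAX7/MYF5 progenitor sum beside them, COX6A2 was at 50.4 and 61.5 CPM on the scale of the fit over all types, where the myocytes of E21 and E28 were at 307 to 435 CPM. Among UMIs of COX6A1 and COX6A2 together, COX6A2 took 27.3% ± 2.57 (SD, n = 3) in cardiac cells, 9.49% to 50.9% in 6 myocyte sums and means of 5.52% to 11.3% in the other types.

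COX7A1, the other muscle form, did not follow. It was at 16.6, 26.1, 15.2 and 11.9 CPM in the progenitors and at 32.5, 33.1, 11.2 and 9.50 CPM in the myocytes, higher at E21 and lower at E28 (log2 0.20, adjusted p = 0.551). COX7A1 took 9.87% ± 1.32 (SD, n = 3) of the UMIs of COX7A1 and COX7A2 in cardiac cells and 2.70% ± 1.35 (n = 6) in myocytes.

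NDUFA8 was the member of complex I with the largest rise. Its levels were 131, 169, 156 and 126 CPM in the progenitors and 354, 486, 496 and 435 CPM in the myocytes, which did not overlap (log2 1.50, SE 0.15, adjusted p = 1.83e-07). NDUFAF3, an assembly factor that acts early, rose by 0.95 (SE 0.12, adjusted p = 2.55e-06) and NDUFA10 by 0.68 (SE 0.17, adjusted p = 0.00359). NDUFS6 rose by 0.51 (SE 0.11, adjusted p = 0.00145), and neither NDUFA10 nor NDUFS6 was called with plain totals. COX6B2 (log2 1.88, SE 0.24, adjusted p = 2.91e-06) and NDUFA4L2, a paralogue of NDUFA4 (log2 2.25, SE 0.53, adjusted p = 0.00216), rose from 7.26 to 25.7 and from 1.67 to 9.54 CPM. Among ubiquitous subunits, COX4I1 (0.58, adjusted p = 0.000187), COX5B (0.61, adjusted p = 0.000276) and COX7A2L, which joins respiratory complexes (0.65, adjusted p = 0.00401), rose.

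COX4I2 and NDUFAF2, an assembly factor of complex I, fell. COX4I2 was at 12.6, 10.2, 16.6 and 10.9 CPM in the progenitors and at 1.42, 2.65, 1.87 and 1.12 CPM in the myocytes (log2 −2.33, SE 0.45, adjusted p = 0.0004), while its ubiquitous partner COX4I1 rose. NDUFAF2 was lower in the myocytes of all 4 libraries (log2 −0.67, SE 0.21, adjusted p = 0.0158) and was not called without E21-DZ or E28-ZZ.

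**Figure D3:**
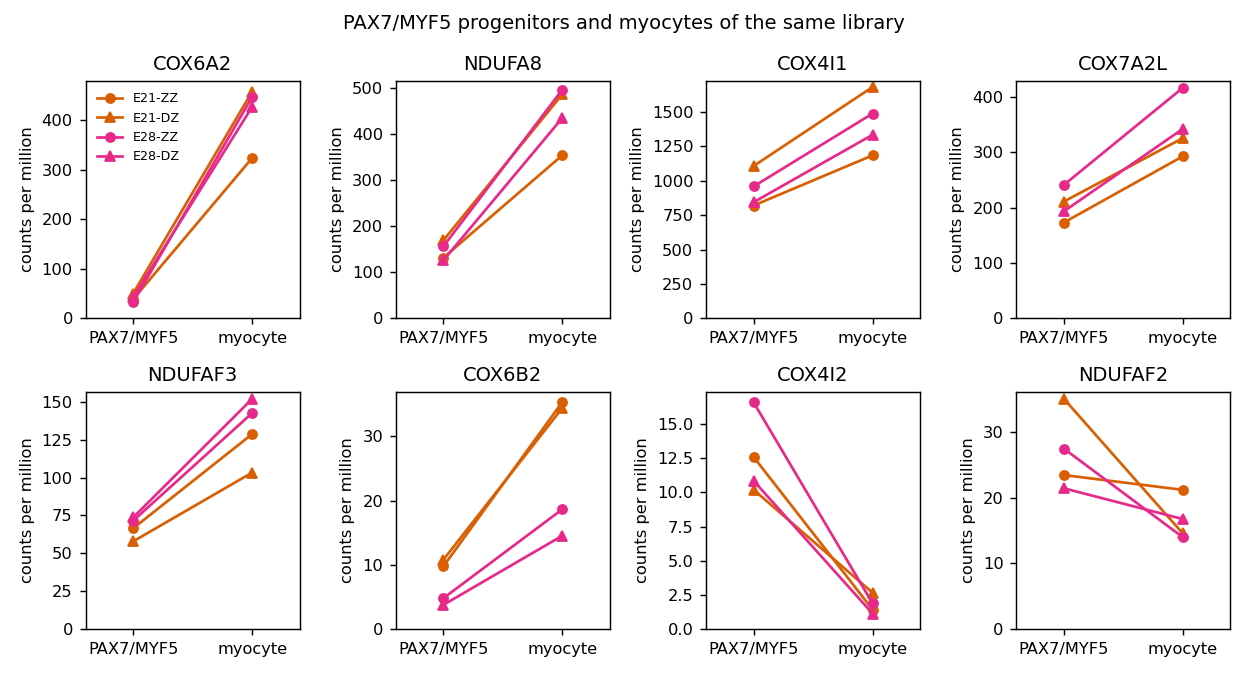
Levels, in CPM, of leading members in PAX7/MYF5 progenitors and in myocytes, on linear axes from 0, with a line joining the sums of the same library (both breeds at E21 and E28). COX6A2, NDUFA8, COX4I1, COX7A2L, NDUFAF3 and COX6B2 are higher in the myocytes of all 4 libraries, and COX4I2 and NDUFAF2 are lower in all 4.

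The count of calls moved with the scaling of the sums. With plain totals in place of TMM, 16 members were called (9 higher, 7 lower). The median of the members moved from 0.24 to −0.06, and that of all genes moved as well, to −0.36. The share of all genes called with plain totals is not given here. Under both scalings 11 members were called in the same direction: ATP5MD, COX4I1, COX5B, COX6A2, COX6B2, COX7A2L, NDUFA4L2, NDUFA8 and NDUFAF3 were higher, and COX4I2 and NDUFAF2 lower. Relative to the median of all genes, the members' median was 0.29 under TMM and 0.30 under totals. The lists beside them moved with the scaling too. Under TMM 6 of 11 electron carriers and supports, IDH2 and MDH2 of the citric acid cycle, 4 of 12 mitochondrially encoded genes and 25 of 52 cytosolic ribosomal protein genes were higher in myocytes, and with plain totals 4 of 11, IDH2 and MDH2, 1 of 12 and 2 of 52, with 2, 1, 4 and 5 members of these lists lower. Of 9 biogenesis regulators none was higher under either scaling, and 4 (MYC, NRF1, PPRC1 and TFAM) were lower under TMM and 6 with plain totals. Of the assembly factors of complexes II to V, SCO1 was called higher and COX20 and TMEM70 lower under TMM. Counts of the mitochondrial ribosomal protein genes are not given for this comparison.

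At the step before, from PAX3 progenitors to PAX7/MYF5 progenitors, no member was called by edgeR (3 at unadjusted p under 0.05) and none by DESeq2, where 4.51% of all genes were called by edgeR. The log2 differences of the complex IV subunits ran from −0.38 to 1.22. Both types had sums only in E21-ZZ, E21-DZ and E28-DZ, with 119, 162 and 21 PAX3 progenitors, so the lack of calls rests on few cells. The gate of PAX3 progenitors did not require PAX3 itself, and that of PAX7/MYF5 progenitors also counted MYOD1, MYF6 and CDH15.

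With stage, the members called in whole libraries were all lower. None of 72 was higher and 27 were lower in the late libraries, where 34.8% of 14689 genes were called and the calls over all genes were near balance (2489 higher, 2622 lower). The median log2 change was −0.38 over the members and 0.02 over all genes. For 25 members (34.7%) every late library was below every early library, against 19.5% of all genes, and no member had every late library above every early one, against 18.4%. Median UMIs a cell were 4649.5 to 6168 in the early and 3399.5 to 4522 in the late libraries, without overlap, and mitochondrial UMIs took 5.24% ± 0.450 (SD, n = 4) early and 4.61% ± 0.581 (n = 4) late, and their part in these changes was not tested. With plain totals in place of TMM the median of all genes was 0.21 and 17 members were lower and 2 higher, and relative to the median of all genes the members stood at −0.40 under TMM and −0.39 under totals. A change in the mix of cell types and a change within cells cannot be told apart in whole libraries.

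The members called lower were 12 of 29 complex I subunits, 2 of 8 assembly factors, 2 of 3 complex II subunits, 3 of 5 of complex III, 4 of 13 of complex IV and 4 of 12 of complex V, of which the shares of complexes IV and V and of the assembly factors were below the 34.8% of all genes. COX4I2 (0.49), COX6A2 (0.44) and COX7A1 (0.36) had positive values and were not called. COX5A, a nuclear subunit of complex IV outside its catalytic core, was at 596, 511, 452 and 418 CPM in E16-ZZ, E16-DZ, E18-ZZ and E18-DZ and at 315, 260, 263 and 237 CPM in the E21 (ZZ, DZ) and E28 (ZZ, DZ) libraries (log2 −0.88, SE 0.13, adjusted p = 0.00351). NDUFAF6, an assembly factor of complex I, was at 32.2, 34.9, 22.2 and 21.2 CPM in the early libraries and at 12.1, 12.1, 9.01 and 12.0 CPM in the late ones (log2 −1.29, SE 0.21, adjusted p = 0.0043). In both genes the periods did not overlap, and E16 lay above E18.

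SDHD, which anchors complex II in the membrane, was at 96.9, 81.5, 79.1 and 81.6 CPM early and at 50.2, 48.2, 56.3 and 55.1 CPM late (log2 −0.69, adjusted p = 0.0037). ATP5F1D, of the central stalk of complex V, fell by 0.87 on the log2 scale (SE 0.15, adjusted p = 0.00498), UQCRC1 and UQCRFS1, the core protein and the iron-sulphur protein of complex III, each by 0.77 (adjusted p = 0.00938 and 0.00596), and COX6B2 by 1.30 (SE 0.30, adjusted p = 0.0133) from a low level. COX7A2L was at 182 ± 21.0 CPM early and 181 ± 15.1 CPM late (SD, n = 4) and was not called.

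The count was smaller without the E16 or the E28 libraries. Without E16 6 members were called, without E28 5, and in both fits ATP5F1D, COX5A, NDUFAF6, SDHD and UQCRQ were among them. These fits had fewer libraries, and their shares of all genes called are not given here. No fit left out both libraries of E18 or of E21, so the part of a stage in the count was not tested. Leaving out single libraries gave 11 calls without E16-DZ, 12 without E16-ZZ, 14 without E28-ZZ and 15 without E28-DZ, and 11 members were called in each of the 8 fits. Other mitochondrial lists had lower calls too: 14 of 17 citric acid cycle genes (median −0.52), 37 of 68 mitochondrial ribosomal protein genes (−0.51) and 2 of 13 mitochondrially encoded genes (−0.38), with none higher, and 6 of 53 cytosolic ribosomal protein genes (−0.18). With plain totals these lower calls were 5, 27, 1 and 4, and 4 cytosolic ribosomal protein genes were higher. Of the electron carriers and supports, SLC25A6 was called higher under TMM (0.34). CYC1, which belongs to complex III, was called lower (−0.95), as were CYCS, SLC25A5, VDAC1 and VDAC2. Counts of the remaining lists are not given for this comparison.

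**Figure D4:**
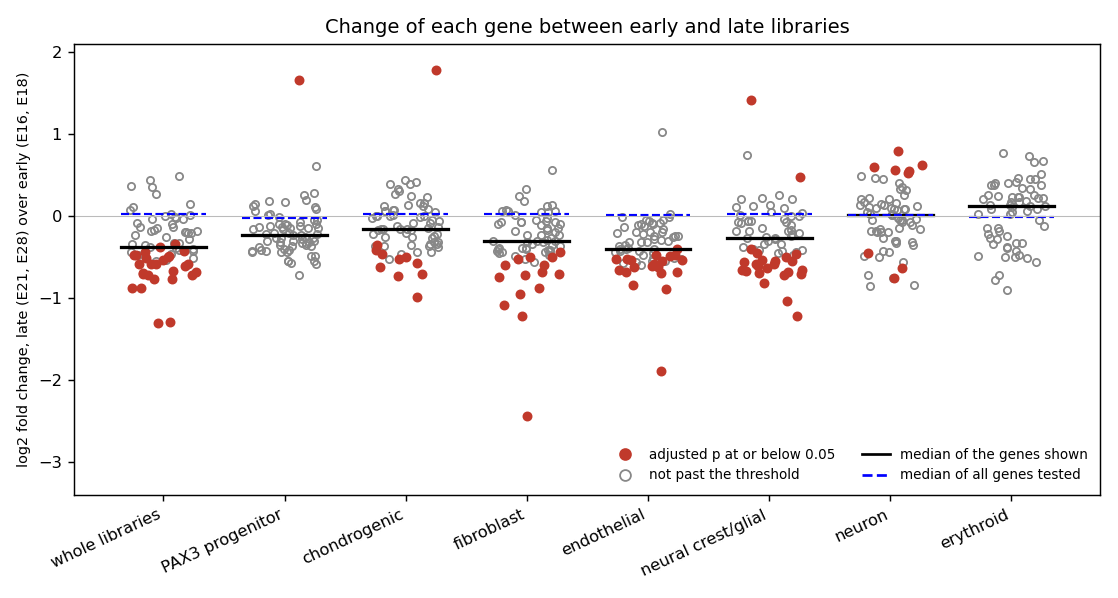
Log2 fold change of each member from early to late, in whole libraries and within 7 gated cell types; filled points had an adjusted p at or below 0.05, and lines mark the medians of the members and of all genes. In whole libraries the 27 filled points lie between −1.30 and −0.34, and in neurons 6 filled points lie above 0.

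The same comparison was made within each of 7 gated types that had at least 3 libraries in each period. These fits share the 8 libraries, so their values are given side by side and not as separate evidence. In fibroblasts 15 of 72 members tested were lower and none higher (30.8% of all genes called, median −0.31 over the members and 0.03 over all genes). In endothelial cells 20 of 69 were lower and none higher (27.2%, medians −0.40 and 0.01), and in neural crest/glial cells 22 of 69 were lower and 2 higher (28.9%, medians −0.27 and 0.02). In chondrogenic cells 10 of 71 were lower and 1 higher (25.5%, medians −0.15 and 0.03). The calls of the members lay almost all on the lower side in these types. The share of members called was above that of all genes in neural crest/glial cells (34.8%) and endothelial cells (29.0%) and below it in fibroblasts (20.8%) and chondrogenic cells (15.5%). In PAX3 progenitors 1 of 70 was higher and none lower (7.11%, medians −0.23 over the members and −0.02 over all genes). In erythroid cells edgeR called none of 63 (1.83% of all genes, medians 0.12 over the members and −0.01 over all genes). There 15 members had an unadjusted p under 0.05, and DESeq2 called 1. With plain totals edgeR called 11 members lower and none higher in erythroid cells, with a median of −0.49 over the members and −0.59 over all genes. NDUFAF6 was at log2 changes of −1.22 in fibroblasts, −1.89 in endothelial cells, −1.22 in neural crest/glial cells and −0.99 in chondrogenic cells, all called, and of −0.72 in PAX3 progenitors, −0.86 in neurons and −0.71 in erythroid cells, not called. COX5A had −0.88, −0.49, −0.70 and −0.62 in the first 4 of these types, all called, and 0.10 in neurons.

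Other members had the largest changes within a type, and several of these falls were called in other types too. In neural crest/glial cells the 2 higher members were COX7A1, the muscle form, which was at 6.62, 9.51, 5.10 and 4.51 CPM in the early libraries and 11.5, 22.5, 13 and 15.6 CPM in the late ones, without overlap (log2 1.42, SE 0.33, adjusted p = 0.00591), and NDUFS4 (0.48, SE 0.14, adjusted p = 0.0212). COX7A1 rests there on 6 to 36 UMIs a sum. NDUFAF4 (−1.04), NDUFA10 (−0.82), ATP5F1D (−0.72) and UQCRC1 (−0.69) fell in these cells. ATP5F1D fell in endothelial cells (−0.90), fibroblasts (−0.95) and chondrogenic cells (−0.52) as well, and UQCRC1 in endothelial cells (−0.69), fibroblasts (−0.60) and chondrogenic cells (−0.71). NDUFA9 (−0.84) and UQCRQ (−0.69) fell in endothelial cells, COX6B2 (−2.45) and ATP5F1C (−0.75) in fibroblasts and UQCRFS1 (−0.73) and NDUFS6 (−0.58) in chondrogenic cells. Of the members named here, NDUFA10, UQCRQ, ATP5F1C and UQCRFS1 were called lower in neural crest/glial, endothelial, fibroblast and chondrogenic cells alike. NDUFA9 was called lower in neural crest/glial cells too, and NDUFS6 in endothelial cells.

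The counts of these types moved with the libraries and cells kept. Without both E16 libraries the counts were 3 in fibroblasts, 1 in endothelial cells (higher), 8 in neural crest/glial cells and 1 in chondrogenic cells (higher), and without both E28 libraries 5, 2, 7 and 3. With a limit of 5% mitochondrial UMIs a cell, 14 were called in fibroblasts, 1 in neural crest/glial cells and 1, higher, in chondrogenic cells. The counts were also smaller without single E16 or E28 libraries: 8 in fibroblasts without E16-ZZ, E16-DZ or E28-ZZ and 9 without E28-DZ, 10, 8, 7 and 7 in endothelial cells without E16-ZZ, E16-DZ, E28-ZZ and E28-DZ, and 14 in neural crest/glial cells without E28-DZ. In chondrogenic cells 3 were called without E16-DZ, 6 without E16-ZZ, E28-ZZ or E28-DZ and 7 without E21-ZZ, and in fibroblasts 23 without E21-DZ. The call in PAX3 progenitors was lost without E16-ZZ, E16-DZ, E18-ZZ, E21-ZZ, E21-DZ or E28-DZ, and in erythroid cells 3 were called without E18-ZZ and 1 without E21-ZZ.

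The median of the members did not fall in neurons, nor in erythroid cells under TMM. Within neurons 6 of 69 members were higher and 3 lower in the late libraries (30.3% of all genes called, medians 0.01 over the members and 0.02 over all genes). The share of members called was below that of all genes. The share of UMIs from the members was 1.62% ± 0.119 (SD, n = 4) early and 1.83% ± 0.0887 (n = 4) late, against 1.82% and 1.54% in endothelial cells, 1.79% and 1.62% in neural crest/glial cells, 1.77% and 1.60% in chondrogenic cells and 1.74% and 1.63% in fibroblasts. Neural progenitors, with only 2 libraries in each period, were at 1.57% early and 1.63% late. NDUFB10, of the membrane arm of complex I, was at 93.6 to 118 CPM early and 169 to 234 CPM late, without overlap (log2 0.79, SE 0.18, adjusted p = 0.00627). COX7A2L was at 117 to 188 CPM early and 247 to 256 CPM late (log2 0.63, adjusted p = 0.0242), and NDUFA11 (0.60), NDUFA8 (0.56), NDUFC2 (0.55) and ATP5MC1, a form of the c subunit of complex V (0.52), rose as well. SDHD (log2 −0.76, adjusted p = 0.0444), SDHC (−0.63, adjusted p = 0.0339) and ATP5F1A (−0.45, adjusted p = 0.0465) fell. With plain totals 9 members were higher and none lower. Leaving out E18-ZZ left 1 call, E16-DZ or E18-DZ 2, E28-ZZ 3, E21-DZ 4 and E28-DZ 5, and NDUFB10 was called in each of the 8 fits.

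A test of the difference, added after these values were seen, set the change in neurons against the mean change in fibroblasts, chondrogenic, endothelial and neural crest/glial cells, with the library as a block. PAX3 progenitors and erythroid cells were not part of it. The change was more positive in neurons for 34 of 72 members and more negative for 2, where 26.1% of 12178 genes were called. The median was 0.34 over the members and 0.08 over all genes. ATP5MC1 differed by 1.04 (SE 0.13, adjusted p = 1.43e-07), COX5A by 0.85 (adjusted p = 2.69e-05), ATP5IF1 by 0.84 (adjusted p = 2.59e-08), NDUFA11 and NDUFB10 by 0.80 each (adjusted p = 1.84e-05 and 4.44e-06) and SDHB, the iron-sulphur subunit of complex II, by 0.79 (adjusted p = 3.94e-05). ATP5MC2 (−0.34, adjusted p = 0.0269) differed the other way. The other member counted as more negative, COX7A1, had 1 to 68 UMIs in the neuron sums, did not pass the filter on low counts within neurons and entered only through its levels in the other types, so its value (−1.19) says nothing about neurons. Of the complex I assembly factors 0 of 8 were called. Cytosolic ribosomal protein genes moved the other way, with 51 of 52 more negative in neurons (median −0.63). The neuron sums held 31 to 212 cells in the early libraries and 52 to 1943 in the late ones, and which kinds of neuron they held was not tested. Without E28-DZ 22 members were called (19 more positive, 3 more negative), and COX7A1 was no longer called without E16-DZ, E18-DZ or E21-DZ, nor ATP5MC2 without E18-ZZ, E18-DZ or E21-DZ.

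Averaged over all stages and under TMM, neurons had lower levels of most members than the mean of the other types. This average covers sums that differed by stage. Members took 1.50% to 1.78% of UMIs in early neuron sums. They took 1.89% and 1.92% in those of E28-ZZ and E28-DZ, where no other gated type was higher. Of 72 members 41 were lower and 4 higher (51.6% of all genes called), with a median log2 difference of −0.25 against 0.04 over all genes. The direction of this count depended on the scaling: with plain totals 17 members were higher and 10 lower, and 14 were called in the same direction under both. With plain totals the median was 0.04 over the members and 0.33 over all genes. Relative to the median of all genes the members' median was −0.29 under both. ATP5MC3 (−0.81), ATP5F1D (−0.81), SDHD (−0.76) and NDUFB5 (−0.57) were among the lower ones under TMM. NDUFA4L2 was called higher but varied between libraries, from 0 to 23.9 CPM with a median of 5.77. In the fits between periods it passed the filter on low counts in neurons and fibroblasts only. It did not pass in PAX3 progenitors, chondrogenic, endothelial, neural crest/glial or erythroid cells, so no fold is given for it. COX7A1 (−1.08) and NDUFAF2 (−0.92) were lower and NDUFB8 (0.33), NDUFA6 (0.28) and COX7A2L (0.24) higher. Under TMM all 52 cytosolic ribosomal protein genes were lower in neurons, and of 12 mitochondrially encoded genes 11 were lower and ND6 was higher (0.30), while with plain totals 34 of 52 and 2 of 12 were lower and ND6 was the 1 called higher.

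Endothelial cells had 25 members lower and 3 higher (40.3% of all genes called), with a median of −0.14 against 0.03. ATP5MC1 (0.31), NDUFA2 (0.20) and ATP5F1A (0.16) were higher, and NDUFB9 (−0.47, adjusted p = 2.07e-06), NDUFS4 (−0.44), UQCRQ (−0.43), NDUFAF3 (−0.42), COX7A1 (−0.47) and COX6A2 (−0.43) lower. The mitochondrially encoded genes did not follow, since 11 of 12 were higher and none lower (median 0.29). With plain totals 6 members were higher and 15 lower. With a limit of 5% in place of 10% mitochondrial UMIs a cell, 9 members were called, all lower.

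COX4I2 took opposite courses in connective tissue types. In fibroblasts it was at 77.4, 60.2, 56.7 and 63.5 CPM in E16-ZZ, E16-DZ, E18-ZZ and E18-DZ and at 27.3, 28.1, 37.6 and 28.5 CPM in the E21 (ZZ, DZ) and E28 (ZZ, DZ) libraries (log2 −1.09, SE 0.15, adjusted p = 0.00187). In chondrogenic cells it was at 12.1, 4.80, 9.59 and 10.4 CPM early and at 26.1, 26.1, 38.2 and 36.5 CPM late (log2 1.78, SE 0.26, adjusted p = 0.00175). Neither type had overlapping periods, and by E28 the levels of both types lay between 28.5 and 38.2 CPM.

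In PAX3 progenitors COX4I2 rose by 1.66 (SE 0.47, adjusted p = 0.048) on sums of 2 to 22 UMIs. The difference between the changes in chondrogenic cells and fibroblasts, a test added after these values were seen, was 2.83 (SE 0.36, adjusted p = 1.36e-06). COX6B2 differed as well, by 2.14 (SE 0.39, adjusted p = 0.000264): in fibroblasts it was at 20.7, 29.4, 19 and 22.9 CPM early and at 6.59, 6.13, 2.55 and 1.83 CPM late, and in chondrogenic cells at 14.5, 12.6, 4.96 and 5.62 early and at 5.50, 7.44, 5.56 and 6.09 late. Of 72 members 7 had a more positive change in chondrogenic cells and none a more negative one (11.2% of all genes called), among them COX7A2L (0.52), NDUFA2 (0.44) and COX4I1 (0.29). With plain totals 2 were more positive and 1 more negative, and without E16-ZZ or E18-DZ 4 members were called. COX4I2 took 4.46% ± 1.44 (SD, n = 8) of the UMIs of COX4I1 and COX4I2 in fibroblasts, 2.15% ± 1.35 (n = 8) in chondrogenic cells and means of at most 1.57% elsewhere. At E28 the 2 types were close: the order was kept in ZZ (3.89% in fibroblasts, 3.66% in chondrogenic cells) and reversed in DZ (3.33% and 4.16%).

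**Figure D5:**
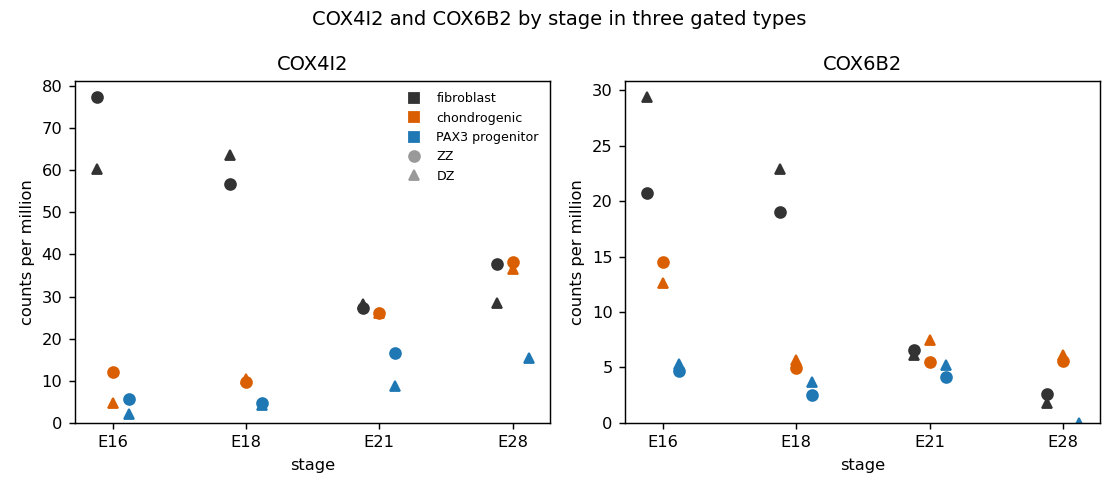
Levels, in CPM, of COX4I2 and COX6B2 by stage in fibroblasts, chondrogenic cells and PAX3 progenitors; each point is the sum of a type in a library, with circles for ZZ and triangles for DZ. COX4I2 falls from 56.7 to 77.4 in early fibroblasts to 27.3 to 37.6 in late ones, and rises from 4.80 to 12.1 to 26.1 to 38.2 in chondrogenic cells.

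In erythroid cells the answer turned on the scaling. Globins and a few other genes filled the libraries there, with the top 10 genes taking 39.7% to 72.2% of UMIs in a sum. Under TMM 52 members were higher and 2 lower than the mean of the other types (45.7% of all genes called), with a median of 0.48 against −0.21 over all genes, and under plain totals 2 were higher and 65 lower, with a median of −0.88 against −1.53. NDUFB10 (1.25), ATP5F1C (1.18), COX7B (1.08) and NDUFAF6 (1.07), called higher under TMM, were below 0 under totals. Outside the 10 leading genes of each sum, members took 2.61% ± 0.187 (SD, n = 8) of UMIs in erythroid cells, 3.44% ± 0.138 (n = 3) in cardiac cells and means of 1.74% to 2.02% in the other types. ATP5IF1, which is known to be needed for haem synthesis, and UQCR10, a small subunit of complex III, were higher under both scalings. ATP5IF1 was at 1502 to 3259 CPM with a median of 1969 in 8 erythroid sums, and at most 1302 CPM, in cardiac cells, in the other types (log2 2.39 under TMM and 0.91 under totals). As a share of all UMIs of a sum, ATP5IF1 took 0.0633% to 0.115% in erythroid cells and 0.0920% to 0.120% in cardiac cells, which overlapped. UQCR10 was at 780 to 1455 CPM (log2 1.68 and 0.24). ATP5MC2 (−0.57 under TMM) and COX7A1 (−0.96 under TMM) were lower under both. Relative to the median of all genes the members' median was 0.69 under TMM and 0.64 under totals.

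Between the breeds no member passed the test. With the stage as a block, 0 of 72 members and 0.0% of 15141 genes were called by edgeR, 2 members (NDUFB6 and COX5A) and 950 genes had an unadjusted p under 0.05, and DESeq2 called 61 genes with no member among them. The log2 differences DZ minus ZZ ran from −0.39 to 0.39 with a median of −0.06, and their median SE was 0.10. For the difference between breeds in the change from early to late, edgeR likewise called no member and 0.0% of all genes, no member had an unadjusted p under 0.05, and DESeq2 called 1 gene. With 1 library per stage and breed, differences smaller than the spread between libraries were not detectable. NDUFS8, the member left out of the fits, had 1 to 4 UMIs in a library and did not pass the filter on low counts.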

How the data were processed

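The authors dissociated the tissues, prepared droplet libraries (10x Genomics) and counted UMIs per gene and barcode with Cell Ranger against Sscrofa11.1 with the Ensembl 98 annotation. The deposited values are these whole-number counts, 1 matrix per library, not normalized. How reads of processed pseudogenes or overlapping genes were resolved is not given in the sources used here.

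Cells with at least 200 genes, at most 30000 UMIs and at most 10% mitochondrial UMIs were kept, and the highest Scrublet scores (scanpy 1.11.5) were removed at 0.8% per 1000 barcodes. UMIs were summed per library, and per gated type and library where at least 20 cells were present. Sums were fitted over all genes with edgeR 4.0.16 (quasi-likelihood test, TMM, filterByExpr, Benjamini-Hochberg over all genes tested, calls at 0.05) in R 4.3.3, with the breed as covariate between periods, the stage as block between breeds and the library as block between types. DESeq2 1.42.0 was an alternative, and the fits were tested on simulated data. SE is that of the log2 fold change. Depth was 39861155 to 57717808 UMIs a library. Named with values were, by rule, the 6 members with the largest positive and negative changes among those called in each comparison, the tissue forms, and the subunits of complex II. ATP5MD, COX5B, NDUFS6, SDHB and COX5A outside their lists, and the genes of the other lists, were named after their values were seen. Members and lists were chosen with earlier results of these data known. Between periods and between breeds the p-values measure the spread between libraries, which are 1 per stage and breed. In fits with the library as a block they measure the spread left among the sums of all types in the fit.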

Additional observations from a re-analysis of the deposited data

Results flagged for a closer look

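In 94 sets of 4 libraries examined for a library far from the other 3, 3 stood apart, where chance gives about 1 in 20. NDUFAF6 was at 9.01 CPM in E28-ZZ and at 12.0 to 12.1 CPM in the other late libraries. SDHC was at 67.6 CPM in E21-DZ and at 86.1 to 88.8 CPM in the other late libraries. SDHD was at 96.9 CPM in E16-ZZ and at 79.1 to 81.6 CPM in the other early libraries.

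The change from early to late differed between neurons and the mean of 4 other gated types, by a test of the difference itself, for these members among others: ATP5MC1 (1.04), COX5A (0.85), ATP5IF1 (0.84), NDUFA11 (0.80), NDUFB10 (0.80) and SDHB (0.79) were more positive in neurons, and COX7A1 (−1.19) and ATP5MC2 (−0.34) more negative. COX7A1 did not pass the filter on low counts within neurons, so its value says nothing about them, and each of these 2 calls was lost on leaving out any of 3 single libraries. Between chondrogenic cells and fibroblasts the same test gave COX4I2 (2.83), COX6B2 (2.14), COX7A2L (0.52), NDUFA2 (0.44), NDUFB2 (0.39) and COX7C (0.34), all more positive in chondrogenic cells. These values are differences of log2 changes. Both tests were added after the changes within the types were seen.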

How the results depend on the processing

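Of 344 counts of members under an alternative, 269 were within 1.5 times the count given and 75 were not, and of 1893 values of named members 1652 kept direction and side of the threshold, 237 lost the call and 4 changed sign. The 4 were in erythroid cells with plain totals: NDUFB10 (−0.14), ATP5F1C (−0.24), COX7B (−0.33) and NDUFAF6 (−0.23). Causes were not tested.

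With plain totals 16 members were called between myocytes and progenitors, 27 in neurons, and between periods 0 in PAX3 progenitors, 17 in chondrogenic cells, 11 in erythroid cells, all lower, and 3 for chondrogenic minus fibroblast. With DESeq2 they were 40 in myocytes, 2 in PAX3 progenitors and 1 in erythroid cells between periods. With no filter on low counts they were 3 in PAX3 progenitors, 33 in endothelial cells, 5 in neurons and 1 in erythroid cells between periods. With a limit of 5% mitochondrial UMIs they were 9 in endothelial cells against other types, and between periods 0 in PAX3 progenitors, 1 in chondrogenic cells, 5 in neurons, 1 in neural crest/glial cells, 21 for neurons minus the other types and 3 for chondrogenic minus fibroblast. With a gate of 2 markers 1 member was called between PAX7/MYF5 and PAX3 progenitors and 0 within PAX3 progenitors, and with 4 markers 3 in chondrogenic cells. In erythroid cells 2 were called with no doublets removed and 1 with no covariate.

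Without E16, 6 members were called in whole libraries, 0 in PAX3 progenitors, 1 in chondrogenic cells, 3 in fibroblasts, 1 in endothelial cells, 1 in neurons and 8 in neural crest/glial cells. Without E28 they were 5, 0, 3, 5, 2, 3 and 7 in the same order. Leaving out 1 library at a time gave 11 to 29 in whole libraries, 0 to 1 in PAX3 progenitors, 3 to 16 in chondrogenic cells, 8 to 23 in fibroblasts, 7 to 25 in endothelial cells, 1 to 7 in neurons, 14 to 27 in neural crest/glial cells, 0 to 3 in erythroid cells, 22 to 37 for neurons minus the other types and 4 to 8 for chondrogenic minus fibroblast. It gave 51 to 58 in cardiac cells and 18 to 27 in myocytes.

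Under a limit of 5%, a gate of 4 markers or 50 cells a sum, cardiac cells had fewer than 3 sums and gave no value. Too few sums remained in a period to compare periods in endothelial cells under the limit of 5%, in PAX3 progenitors or neurons with 4 markers, and in PAX3 progenitors or erythroid cells with 50 cells a sum. No paired analysis was possible because every stage and breed had 1 library and no replicate numbers pair libraries, other than with the stage or the library as a block, which the tests between breeds and between types had from the start. Depth limits the low members: COX6B2, COX4I2 and NDUFA4L2 rest on few UMIs in most sums.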

Other observations

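Beside the change of the members in neurons, lists other than the cytosolic ribosomal proteins given above were counted in the same test of the difference from 4 other gated types. Of 11 electron carriers and supports 7 were more positive in neurons and none more negative (median 0.48), and of 17 citric acid cycle genes 4 were more positive and 1 more negative (median 0.29). Of 68 mitochondrial ribosomal protein genes 16 were more positive and 6 more negative, and of 12 biogenesis regulators none was more positive and 2 were more negative. Of 12 mitochondrially encoded genes 3 were more positive and 1 more negative (median 0.08).

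In erythroid cells, where 45.7% of all genes were called under TMM, 48 of 68 mitochondrial ribosomal protein genes were higher and 1 was lower than in the other types, and 46 of 52 cytosolic ribosomal protein genes were higher and 1 lower. With plain totals none of either list was higher, and 63 and 51 were lower.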
